A study of Mus musculus with 31 samples.

Results

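Expression of 6 immune checkpoint and costimulatory genes, Cd274, Lgals9, Cd86, Cd40, Lag3 and Havcr2, was followed in the mouse hippocampus over the course of a T cell-driven limbic encephalitis. They were selected by gene symbol, and all 6 were found among the 15648 genes of the count table. Each of 31 adult mice gave 1 library from its left hippocampus. Every mouse was OT-I/Rag1-/-, so that its T cells carried a transgenic receptor for chicken ovalbumin (OVA) and, with Rag1 deleted, no mature T or B cells with a receptor of their own making were present. Both dorsal CA1 regions had been injected with a recombinant adeno-associated virus (rAAV). In the rAAV-OVA group the vector was rAAV-hSyn-OVA-mCherry, in which the neuronal hSyn promoter drives OVA with the mCherry marker. In the rAAV-control group it was rAAV-hSyn-mCherry, the marker without the antigen. Hippocampi were taken 2, 5, 8 or 28 d later, from 4 mice per vector and day except for 3 rAAV-control mice at 8 d. The comparison of the 2 vectors at each day asked how the tissue responded to the neuronal antigen.

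T cells that meet their antigen read further signals from the cell that presents it, and these signals set how strong and how long the response becomes. Costimulatory molecules such as CD86 and CD40 sit mainly on antigen-presenting cells, which in the brain include microglia, border macrophages and incoming monocytes. Checkpoint molecules act the other way: PD-L1 and galectin-9 are ligands on presenting or tissue cells, and LAG-3 and TIM-3 are receptors that curb activated T cells. Interferon-gamma from T cells is a known inducer of several of these ligands.

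Libraries held between 19046977 and 57407902 estimated counts, and levels are given as CPM, the counts of a gene scaled to the size of its library. Neuronal markers summed to at least 2987 CPM and 4 hippocampal markers, Prox1, Wfs1, Neurod1 and Fibcd1, to at least 234 CPM in every mouse, so the labelled tissue was present throughout. In this bulk tissue, fewer cells of a type and less RNA per cell cannot be told apart. Several mice stood apart from the rest of their groups in the marker lists. The rAAV-control mouse D720 at 8 d had 17.7 CPM of the T cell markers Cd8a, Lck and Cd6, against 3.05 and 2.59 CPM in the other two. The rAAV-OVA mouse D844 at 28 d had 11.5 CPM of the same markers, against 134 to 286 CPM in the other 3. The rAAV-OVA mouse BEC-B542 at 2 d had 1.69 CPM of T cell markers, within the range of its group. It had 482 CPM of the 9 genes listed for the interferon-gamma pathway, against 310.02 to 363 CPM in the other 3. The rAAV-control mouse D743 at 2 d had 88.9 CPM of monocyte and macrophage markers, against 27.6 to 37.3 CPM in the other 3, and the rAAV-control mouse D755 at 5 d had more of the microglia markers than the rest of its group. The Log2FC of the 6 genes between vectors is given with and without D720 at 8 d and D844 at 28 d, while values of other genes are given with all mice.

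From 5 d onward the Log2FC of rAAV-OVA against rAAV-control mice was positive for all 6 genes, and its size depended on the gene. A gene was called a differentially expressed gene (DEG) at a false discovery rate (FDR) of at most 0.05 and a Log2FC of at least 0.66 in size, from the edgeR quasi-likelihood test with Benjamini-Hochberg adjustment over all 15648 genes. Of the 6 genes, 0 were DEGs at 2 d, 5 at 5 d, 5 at 8 d and 6 at 28 d. The share of all genes called higher in rAAV-OVA mice was 0%, 9.63%, 9.32% and 12.8% at these days. The median Log2FC of the 6 genes was 1.91 at 5 d, 1.59 at 8 d and 2.18 at 28 d, while that of all genes was -0.01, -0.03 and 0.01. At 5 d the lowest rAAV-OVA mouse exceeded the highest rAAV-control mouse for all 6 genes, a pattern that 21% of all genes showed. At 8 d this held for 2 genes, Cd86 and Cd40, against 14.4% of all genes. At 28 d it held for 5 genes, all but Cd274, against 15%, and at 2 d for 0 genes, against 2.22%.

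**Figure D1:**
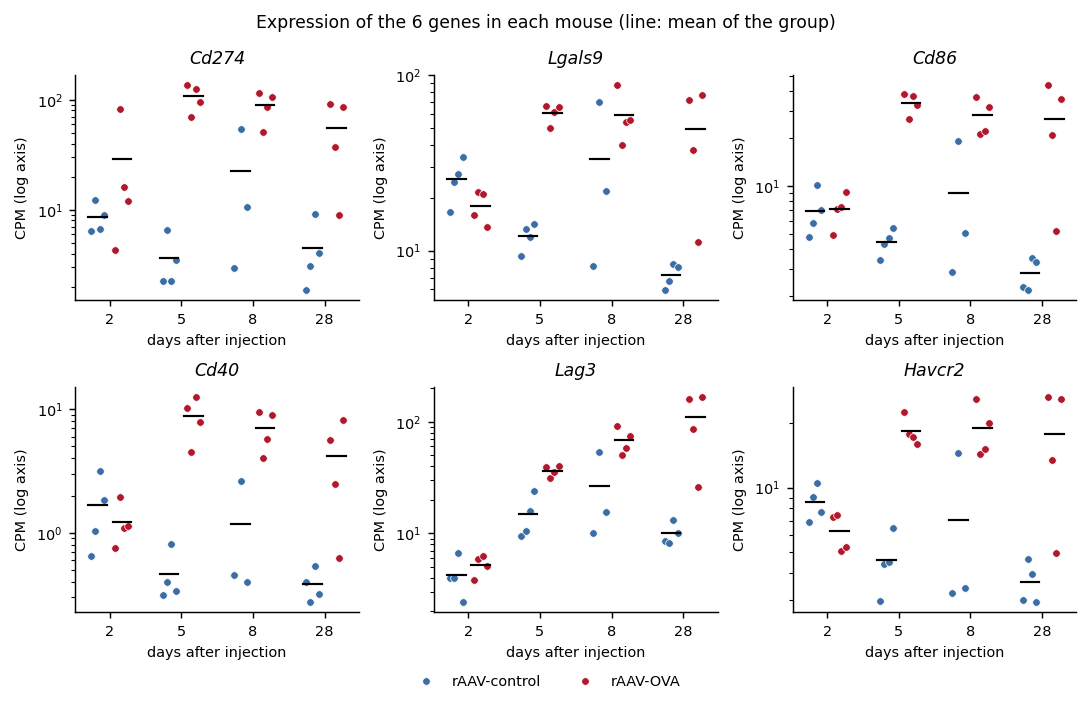
Level of each of the 6 genes in every mouse, in CPM on a log axis, against days after injection. Blue points are rAAV-control mice, red points are rAAV-OVA mice and each black line is the mean of a group. At 5 d the groups do not overlap for any of the genes, at 8 d 1 rAAV-control mouse (D720) lies close to the rAAV-OVA mice, and at 28 d 1 rAAV-OVA mouse (D844) lies far below the other 3.

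Cd274 encodes PD-L1, the ligand that restrains T cells through the receptor PD-1, and its response at 5 d was the largest of the 6. At 5 d it measured 137, 70.2, 126 and 95.4 CPM in the rAAV-OVA mice and 2.24, 6.54, 2.26 and 3.48 CPM in the rAAV-control mice. The groups were far apart, and the Log2FC was 3.92 (SE 0.63, edgeR FDR = 0.000101). At 8 d the rAAV-OVA mice had 115, 51.4, 85.8 and 106 CPM. The rAAV-control mice had 2.92 CPM (D696), 54.0 CPM (D720) and 10.6 CPM (D722), so that D720 overlapped the lower end of the rAAV-OVA group. The Log2FC at 8 d was 2.76 (SE 0.63, edgeR FDR = 0.00429), and 3.58 (SE 0.76, edgeR FDR = 0.00244) without D720. The call at 8 d was lost without the rAAV-control mouse D696 (1.84, edgeR FDR = 0.0611) or D722 (1.99, edgeR FDR = 0.123), without the rAAV-OVA mouse D701 (1.93, edgeR FDR = 0.0503) and without covariates (1.99, edgeR FDR = 0.112). At 28 d the rAAV-OVA mice ranged widely, with 90.8, 37.0 and 86.6 CPM in 3 mice and 9.0 CPM in D844. The rAAV-control mice had 9.20, 4.01, 1.87 and 3.07 CPM, which left D844 within their range. Its Log2FC at 28 d was 2.11 (SE 0.62, edgeR FDR = 0.0120), and 2.75 (SE 0.83, edgeR FDR = 0.0195) without D844. Without the rAAV-OVA mouse D661 the FDR was 0.0643, and without the rAAV-control mouse D851 it was 0.0510, both by the same edgeR test. Over all fits that left out 1 mouse the Log2FC at 28 d ran from 1.81 to 2.75.

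At 2 d, Cd274 was high in a single rAAV-OVA mouse. The values were 16.2, 12.1, 4.32 and 82.3 CPM in rAAV-OVA mice and 6.65, 8.96, 6.4 and 12.4 CPM in rAAV-control mice. The mouse at 82.3 CPM was BEC-B542. Of the other 3, the mouse at 16.2 CPM lay above the highest rAAV-control mouse, 1 lay within the rAAV-control range and 1 below it. In batch 1 as the labels give it, with 2 mice per vector, the groups were apart at means of 14.2 and 7.81 CPM, and in batch 2, which held BEC-B542, they overlapped. For Lgals9, Havcr2 and Cd40 the groups of batch 1 at 2 d were apart in the other direction, with mean log2 CPM differences of -0.85, -0.80 and -1.07, and they overlapped in batch 2. The Log2FC was 1.30 (SE 0.55), with an unadjusted edgeR p-value of 0.0262 and an FDR of 0.498, and it was 0.42 without BEC-B542. In the same mouse Irf1, an interferon-induced transcription factor, was at 87.6 CPM against 6.59 to 30.4 CPM in the other 3 rAAV-OVA mice, and the class II gene H2-Aa was at 27.1 CPM, within the 16.02 to 32.1 CPM of its group. The part of interferon-gamma pathway genes in this result was not tested. The count of DEGs at 2 d stayed at 0 of the 6 genes in DESeq2 and limma as well, and Cd274 was the only one with an unadjusted edgeR p under 0.05, a limit that 9.06% of all genes passed. In the reference annotation an antisense gene overlaps exons of Cd274, and since no source states counting by strand, reads of the pair cannot be told apart there.

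The promoter windows of Cd274 and Lgals9 are shown because their levels followed those of interferon-induced genes across the mice, as described further down. Each window runs from 250 bases before to 50 bases after the RefSeq start in GRCm38.p6, is written 5′ to 3′ on the strand of the gene, and has in capitals every match to GAAANNGAA, the core of the interferon-stimulated response element, searched on both strands. The Cd274 window (chr19:29367188-29367487, plus strand) held 1 match, on the other strand, from 76 to 68 bases before the start. The Lgals9 window (chr11:78984875-78985174, minus strand) held 2 matches, also on the other strand, from 54 to 46 bases before and from 16 to 24 bases after the start.
Cd274: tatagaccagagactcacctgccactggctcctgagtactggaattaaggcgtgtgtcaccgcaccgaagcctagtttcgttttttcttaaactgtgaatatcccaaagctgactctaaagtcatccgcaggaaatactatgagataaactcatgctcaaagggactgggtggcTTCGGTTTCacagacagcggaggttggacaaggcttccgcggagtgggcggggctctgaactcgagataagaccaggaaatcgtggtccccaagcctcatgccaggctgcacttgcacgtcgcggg
Lgals9: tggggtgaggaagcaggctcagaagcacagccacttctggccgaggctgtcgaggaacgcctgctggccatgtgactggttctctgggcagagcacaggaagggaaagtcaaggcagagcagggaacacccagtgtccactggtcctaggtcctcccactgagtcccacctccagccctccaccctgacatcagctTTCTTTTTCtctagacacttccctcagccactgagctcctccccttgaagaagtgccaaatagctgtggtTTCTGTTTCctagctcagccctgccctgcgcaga
This core was found in 8.56% of 32851 mouse promoter windows of the same length. Neither window held the NF-kB consensus (8.46% of windows), searched on both strands. The window of Havcr2 held no match to either motif. A match to these letters is a description of the sequence and no measurement of binding.

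Lgals9 encodes galectin-9, a sugar-binding ligand of TIM-3 that can dampen T cell responses. At 5 d it stood at 66.3, 49.7, 61.6 and 65.6 CPM in rAAV-OVA mice and at 9.31, 13.2, 11.9 and 14.1 CPM in rAAV-control mice, with no overlap. The Log2FC at 5 d was 1.63 (SE 0.39, edgeR FDR = 0.00334). At 8 d the rAAV-OVA mice had 87.8, 40.0, 53.7 and 55.1 CPM and the rAAV-control mice 8.15, 70.1 (D720) and 21.8 CPM. D720 exceeded 3 of the 4 rAAV-OVA mice, and Lgals9 was the gene that missed the DEG limit at 8 d, with a Log2FC of 1.03 (SE 0.40, edgeR FDR = 0.0747). Without D720 it was 1.71 (SE 0.43, edgeR FDR = 0.00907), while without D696 it was 0.33 (edgeR FDR = 0.507), without D722 0.56 (edgeR FDR = 0.501) and without D701 0.67 (edgeR FDR = 0.261). At 28 d Lgals9 measured 72.3, 37.2, 77.2 and 11.2 CPM (D844) with the antigen and 8.35, 8.02, 5.96 and 6.73 CPM without it, so that even D844 lay above the rAAV-control mice. The Log2FC at 28 d was 1.88 (SE 0.41, edgeR FDR = 0.00167), and 2.23 (edgeR FDR = 0.00136) without D844. At 2 d the values overlapped, with 20.9, 13.5, 15.9 and 21.7 CPM in rAAV-OVA and 27.3, 34.1, 16.5 and 24.7 CPM in rAAV-control mice (Log2FC -0.51, edgeR FDR = 0.729).

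Cd86 encodes B7-2, which on presenting cells binds CD28 to costimulate T cells and CTLA-4 to restrain them. It rose at 5, 8 and 28 d. At 5 d it reached 38.0, 26.6, 37.3 and 32.7 CPM in rAAV-OVA mice, above the 3.40, 4.31, 4.67 and 5.4 CPM of rAAV-control mice, a Log2FC of 2.19 (SE 0.35, edgeR FDR = 0.000105). At 8 d it was 36.8, 21.2, 22.4 and 31.6 CPM against 2.84, 19.1 (D720) and 5.05 CPM, still without overlap, and the Log2FC was 1.66 (SE 0.37, edgeR FDR = 0.00327). It was 2.35 (edgeR FDR = 0.000426) without D720, and the call was lost without D722 (1.10, edgeR FDR = 0.129). At 28 d it was 43.7, 20.9, 35.7 and 5.21 CPM (D844) against 3.50, 3.29, 2.31 and 2.20 CPM, again apart, with a Log2FC of 2.26 (SE 0.37, edgeR FDR = 0.000244), or 2.60 (edgeR FDR = 0.000131) without D844. At 2 d the groups overlapped, at 7.35, 9.13, 4.87 and 7.20 CPM in rAAV-OVA mice and 10.2, 7.05, 4.74 and 5.83 CPM in rAAV-control mice (Log2FC -0.10, edgeR FDR = 0.949).

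Cd40 encodes the receptor through which CD40 ligand on helper T cells activates presenting cells. It was the lowest of the 6 genes in CPM and had the second largest response at 5 d. The rAAV-OVA mice at 5 d had 10.2, 4.47, 12.5 and 7.85 CPM and the rAAV-control mice 0.313, 0.402, 0.816 and 0.341 CPM. The groups did not overlap, and the Log2FC was 3.52 (SE 0.57, edgeR FDR = 0.000109). At 8 d the values were 9.51, 4.04, 5.68 and 8.91 CPM against 0.459, 2.64 (D720) and 0.398 CPM, apart as well, with a Log2FC of 2.55 (SE 0.58, edgeR FDR = 0.00402). It was 3.40 (edgeR FDR = 0.00231) without D720, and the call was lost without D722 (1.82, edgeR FDR = 0.132). At 28 d they were 5.67, 2.47, 8.09 and 0.621 CPM (D844) against 0.539, 0.321, 0.402 and 0.275 CPM, with D844 just above the highest rAAV-control mouse, and the Log2FC was 2.38 (SE 0.61, edgeR FDR = 0.00504), or 2.54 (edgeR FDR = 0.00835) without D844. At 2 d Cd40 overlapped between groups, with 1.10, 1.1, 0.747 and 1.95 CPM in rAAV-OVA mice and 3.19, 1.83, 0.652 and 1.04 CPM in rAAV-control mice (Log2FC -0.52, edgeR FDR = 0.823).

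Lag3 encodes a receptor of activated T cells that binds MHC class II, and in the mouse brain it is also transcribed by resident cells. Its response at 28 d was the largest of the 6 genes in the model with surrogate variables, at 2.70, while without covariates that of Cd274 was larger, at 3.62 against 3.45. At 2 d it was low everywhere, at 6.25, 5.09, 3.80 and 5.91 CPM in rAAV-OVA and 6.65, 2.42, 4.0 and 3.99 CPM in rAAV-control mice (Log2FC 0.20, edgeR FDR = 0.927). At 5 d the rAAV-OVA mice had 39.1, 31.2, 35.3 and 40.2 CPM and the rAAV-control mice 9.49, 10.6, 15.8 and 24.1 CPM, without overlap. The Log2FC at 5 d was 0.64 (SE 0.42, edgeR FDR = 0.266), so Lag3 was no DEG at that day. The rAAV-control mouse at 24.1 CPM was D755, the deepest library of the series, whose homeostatic microglia markers summed to 880 CPM against 572 to 655 CPM in the other 3. Without D755 the Log2FC was 1.21 (SE 0.40, edgeR FDR = 0.0260), and in the fit without covariates it was 1.27 (SE 0.45, edgeR FDR = 0.0305).

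At 8 d Lag3 measured 92.2, 50.01, 58.0 and 73.8 CPM in rAAV-OVA mice. The rAAV-control mice had 10.1, 53.5 (D720) and 15.4 CPM, so that D720 overlapped the rAAV-OVA group. The Log2FC was 1.39 (SE 0.43, edgeR FDR = 0.0282), and 2.08 (SE 0.48, edgeR FDR = 0.00461) without D720. The call at 8 d was lost in 5 of the 7 fits that left out 1 mouse, at a Log2FC from 0.87 without D696 (edgeR FDR = 0.141) and 0.91 without D722 (edgeR FDR = 0.299) to 1.30 without the rAAV-OVA mouse D700 (edgeR FDR = 0.0981). The other two were D701 (1.17, edgeR FDR = 0.0667) and D702 (1.25, edgeR FDR = 0.0634), and the call was also lost without covariates (1.38, edgeR FDR = 0.0638). At 28 d the rAAV-OVA mice had 160, 86.9, 166 and 26 CPM (D844), all above the 13.1, 10.2, 8.63 and 8.15 CPM of the rAAV-control mice. The Log2FC at 28 d was 2.70 (SE 0.44, edgeR FDR = 0.000221), and 3.15 (edgeR FDR = 0.000153) without D844.

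Havcr2 encodes TIM-3, a receptor for galectin-9 found on exhausted T cells and on macrophages and microglia. It rose at 5, 8 and 28 d, at a Log2FC between 1.43 and 1.59. At 5 d it was 22.6, 17.9, 17.2 and 15.9 CPM in rAAV-OVA mice and 2.95, 4.42, 4.53 and 6.48 CPM in rAAV-control mice, apart, with a Log2FC of 1.43 (SE 0.38, edgeR FDR = 0.00686). At 8 d it was 25.9, 14.4, 15.1 and 20.1 CPM against 3.22, 14.5 (D720) and 3.42 CPM, where D720 slightly exceeded the lowest rAAV-OVA mouse, and the Log2FC was 1.53 (SE 0.39, edgeR FDR = 0.00952). It was 2.27 (edgeR FDR = 0.000952) without D720, and the call was lost without D696 (1.10, edgeR FDR = 0.0507) or D722 (0.98, edgeR FDR = 0.201). At 28 d it was 26.4, 13.5, 25.9 and 4.96 CPM (D844) against 3.96, 2.93, 3.0 and 4.67 CPM, a Log2FC of 1.59 (SE 0.40, edgeR FDR = 0.00407), with D844 only just above the control range. Without D844 it was 2.03 (edgeR FDR = 0.00182). At 2 d the groups overlapped, at 5.05, 5.30, 7.28 and 7.49 CPM in rAAV-OVA and 10.5, 7.73, 6.90 and 9.02 CPM in rAAV-control mice (Log2FC -0.46, edgeR FDR = 0.756).

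The number of DEGs at 8 d depended on single mice. It fell to 0 of the 6 genes without the rAAV-control mouse D722, to 2 without D696 and to 3 without the rAAV-OVA mouse D701, and it reached 6 without D720. The number of all genes called higher moved in the same fits, from 1459 with all mice to 410 without D722, 1089 without D696, 1252 without D701 and 1536 without D720. The direction of the 6 genes was the same in each of these fits. The surrogate variables that the model carried as covariates also moved the size. At 5 and 28 d the Log2FC of each of the 6 genes was smaller with them than without, and at 8 d that of Cd40 alone. How far these variables, which were estimated from the counts, carry part of the response to the antigen was not tested, so both sets of values are given. Without them the Log2FC at 5 d was 4.88 for Cd274, 4.23 for Cd40, 2.91 for Cd86, 2.32 for Lgals9, 1.99 for Havcr2 and 1.27 for Lag3. At 28 d it was then 3.62, 3.43, 3.22, 2.77, 2.28 and 3.45 in the same order of genes. At 8 d, without covariates, 3 of the 6 were DEGs, and with D720 also left out all 6 were, at a Log2FC between 1.98 for Lgals9 and 4.03 for Cd40. In these fits 1186 and 1757 of all 15648 genes were called higher. The labels give each mouse a batch number without saying what the batches are, and both batches held mice of both vectors at 2 and 28 d. At 28 d the mean log2 CPM of rAAV-OVA mice exceeded that of rAAV-control mice by 4.56 in batch 1 and 2.19 in batch 2 for Cd274, and by 3.80 and 2.5 for Lag3. For the other 4 genes the difference was between 2.31 and 3.71 in batch 1 and between 1.72 and 2.28 in batch 2, the batch that held D844. At 2 d the batches differed in sign for Cd40, at -1.07 in batch 1 and 0.52 in batch 2, and for Cd86, at -0.05 and 0.17.

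**Figure D2:**
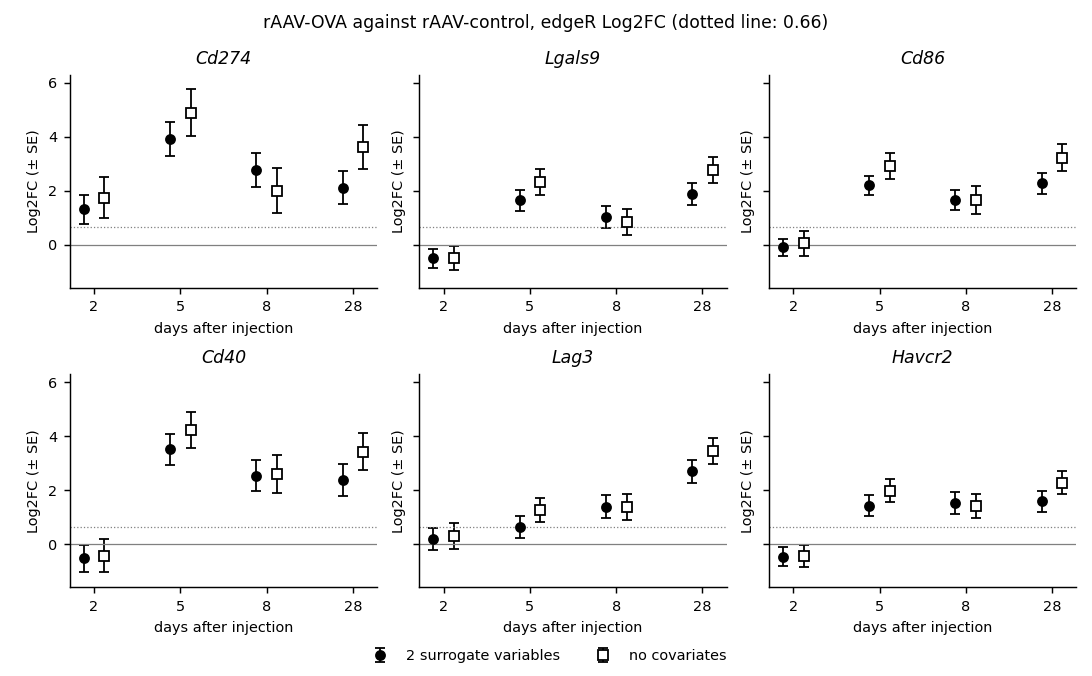
Log2FC of rAAV-OVA against rAAV-control mice for each gene against days after injection, with bars of 1 standard error. Filled circles are the model with 2 surrogate variables, open squares the model without covariates, and the dotted line marks the DEG limit of 0.66. The Log2FC of Cd274 and Cd40 is largest at 5 d in both models, while that of Lag3 is largest at 28 d, at 2.70 and 3.45. For Cd274 and Cd40 no difference in response between days was called.

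Whether a response differed between days was tested as the difference of the Log2FC values. From 5 d to 28 d the response of Lag3 grew by 2.06 on the log2 scale (SE 0.54, edgeR FDR = 0.0204), the 1 call among the 6 genes, where 9.48% of all genes were called. The call was lost without D755 (1.58, edgeR FDR = 0.0724) and without the rAAV-OVA mouse D661 (1.87, edgeR FDR = 0.0615), and also without covariates (2.18, edgeR FDR = 0.0561) and with the batch label in place of the surrogate variables (2.17, edgeR FDR = 0.0569). For Cd274 the same difference was -1.81 (SE 0.79, edgeR FDR = 0.142) and for Cd40 -1.13 (SE 0.78, edgeR FDR = 0.359), neither past the limit. Leaving out 1 mouse moved the value for Cd274 between -2.09 and -1.08, the latter without the rAAV-control mouse D723, and that for Cd40 between -1.59 and -0.62, again the latter without D723. Lgals9, Havcr2 and Cd86 differed by 0.24, 0.16 and 0.07 with SE values of 0.51, 0.49 and 0.46. Between 8 d and 5 d, 0 of the 6 responses differed (0.192% of all genes) and 0 had an unadjusted edgeR p under 0.05. Between 28 d and 8 d, 0 of the 6 differed (0% of all genes). There Lag3 alone had an unadjusted edgeR p under 0.05, with a difference of 1.31 (SE 0.61, edgeR FDR = 0.289), which was 0.83 without D720, 2.07 without D722 and 2.06 without the rAAV-OVA mouse D845. DESeq2 and limma also gave 0 calls for both of these pairs of days.

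Within the rAAV-OVA mice, 3 of the 6 genes were higher at 5 d than at 2 d, against 6.6% of all genes. These were Lag3 (Log2FC 2.36, SE 0.44, edgeR FDR = 0.00139), Cd40 (2.34, SE 0.53, edgeR FDR = 0.00511) and Cd86 (1.75, SE 0.35, edgeR FDR = 0.00228). DESeq2, limma and the edgeR fit without covariates each called 5. Of all 15648 genes these fits called 1166, 1145 and 1573 higher, against 1033 in the main fit. Leaving out 1 mouse added a call for Cd274 without BEC-B542 (2.20, edgeR FDR = 0.0232), for Lgals9 without D683 (1.29, edgeR FDR = 0.0431) and for Havcr2 without BEC-B541 (1.19, edgeR FDR = 0.0249). Between 8 d and 5 d in rAAV-OVA mice, edgeR called 0 of the 6 (2.11% of all genes). The value for Lag3 was 1.15 (SE 0.39, unadjusted p = 0.00653, edgeR FDR = 0.0894), the only unadjusted p under 0.05, and DESeq2 and limma each called it. These were 2 of 8 alternative settings, over which the value for Lag3 ran from 0.39 to 1.22. Between 28 d and 8 d, 0 of the 6 were called (2.85% of all genes) by edgeR, DESeq2 or limma. The only unadjusted p under 0.05 was that of Cd274, at -1.23 (SE 0.53, edgeR FDR = 0.17), which was -0.27 without D701, -0.82 without D845 and -1.06 without D844.

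The rAAV-control mice also changed over time. Against 2 d, the rAAV-control mice at 28 d had less Lgals9 (Log2FC -1.46, SE 0.38, edgeR FDR = 0.0329) and more Lag3 (1.57, SE 0.43, edgeR FDR = 0.0429), where 2.79% of all genes were called in either direction. Every rAAV-control mouse at 28 d lay below every one at 2 d for Lgals9 and above every one for Lag3. The remaining 4 genes had Log2FC values between -1.50 and -0.43 and were not called. Leaving out any 1 of the 8 mice left 0 or 1 of the 2 calls, and each call was kept in 2 of these 8 fits. Without D743, for example, neither was called (Lgals9 -1.30, edgeR FDR = 0.133, and Lag3 1.42, edgeR FDR = 0.148). In the order of the 8 group means, neighbouring groups differed by less than the sum of their SDs for Cd274, Havcr2 and Cd40 throughout. For the other 3 genes this did not hold for Lgals9 in rAAV-control mice at 5 d and 28 d, for Cd86 in the same groups, and for Lag3 between rAAV-OVA at 8 d (68.5 ± 18.6 CPM, SD, n = 4) and at 5 d (36.4 ± 4.09 CPM, SD, n = 4) and between rAAV-control at 28 d and rAAV-OVA at 2 d.

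Levels were compared between genes after division by transcript length. At 5 d in rAAV-OVA mice the order was Lgals9 with a mean of 40.0 CPM per kb, Cd274 with 29.6, Lag3 with 18.2, Cd86 with 13.3, Cd40 with 7.74 and Havcr2 with 7.01 CPM per kb. At 28 d Lag3 led with 54.8 CPM per kb, followed by Lgals9 with 32.6, Cd274 with 15.4, Cd86 with 10.4, Havcr2 with 6.74 and Cd40 with 3.72 CPM per kb. In rAAV-control mice at 28 d, Lag3 at 5.01 and Lgals9 at 4.78 CPM per kb were the highest and Cd40 at 0.339 CPM per kb the lowest.

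**Figure D3:**
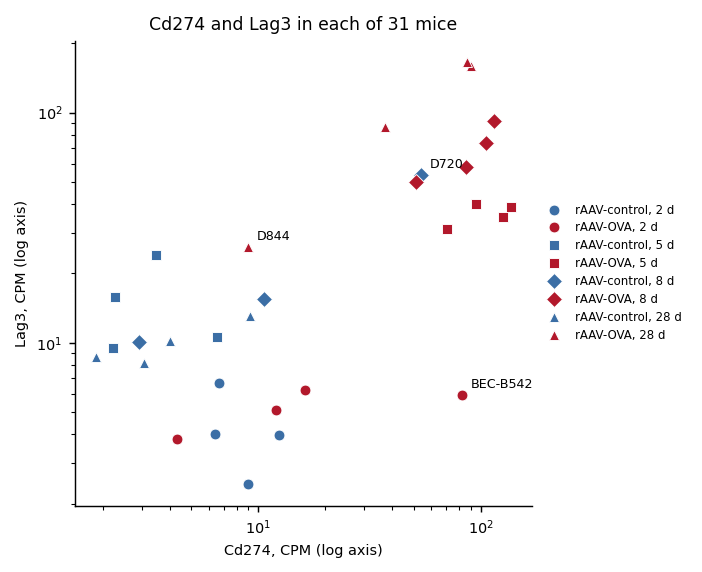
Lag3 against Cd274 in each of the 31 mice, both in CPM on log axes, with symbols for the day and colours for the vector. The rAAV-OVA mice at 5 d have high Cd274 (70.2 to 137 CPM) with Lag3 between 31.2 and 40.2 CPM, those at 28 d reach Lag3 of 166 CPM, and the 3 named mice stand apart from their groups.

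The same mice differed in cell type markers, and the values are given here beside the 6 genes. Of 10 T cell markers listed, 3 were in the table, and their sum in rAAV-OVA mice was 57.9 to 79.8 CPM at 5 d, 85.9 to 272 CPM at 8 d and 11.5 to 286 CPM at 28 d. In rAAV-control mice it was 1.48 to 3.32, 2.59 to 17.7 and 0.961 to 1.43 CPM. All 3 were DEGs at each of these days. Only markers that passed the authors' limit on counts could be tested. These 3 were low in rAAV-control mice and may have passed that limit largely through rAAV-OVA mice. That all 3 were called therefore says little about the T cell list as a whole. The 8 monocyte and macrophage markers summed to 264 to 444, 135 to 454 and 12.96 to 257 CPM in rAAV-OVA mice, against 2.55 to 11.7, 5.35 to 76.6 and 2.88 to 4.77 CPM, and 7, 8 and 7 of them rose. Of the 10 homeostatic microglia markers 4, 2 and 7 rose, while Gpr34 fell at 5 d (Log2FC -1.24). Their sum was 1205 to 1240, 1129 to 1629 and 593 to 1712 CPM in rAAV-OVA mice and 572 to 880, 473 to 1372 and 449 to 498 CPM in rAAV-control mice.

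To set the 6 genes beside these cells, the log2 CPM of each gene was taken relative to the mean log2 CPM of a marker list in the same library. Relative to the microglia list, Cd274 was higher with the antigen by 4.46 at 5 d and Cd40 by 3.53 (exact 2-sided permutation tests, 4 against 4 mice, p = 0.0286, adjusted p = 0.0457 over 24 tests). The p-value of 0.0286 is the smallest this design can give. At 28 d the difference was 2.09 for Lag3, 1.79 for Cd86, 1.70 for Cd40 and 1.37 for Lgals9 (exact permutation, adjusted p = 0.0457 each). For Cd274 (2.31) and Havcr2 (0.95) at 28 d the exact permutation p was 0.0571 (adjusted p = 0.0807). In all, 15 of the 24 tests passed an adjusted p of 0.05, with 0 of them at 2 d, and Lgals9 at 8 d (0.72, exact permutation p = 0.229) was the other that did not pass from 5 d on. The number of passes fell to 0 in 11 of 31 repeats that left out 1 mouse, those without any 1 mouse of 8 d or any 1 rAAV-control mouse of 28 d.

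Relative to the T cell list the differences from 5 d on were negative for each gene. The list itself rose by a median Log2FC of 3.95, 4.53 and 5.31 at 5, 8 and 28 d. This was more than any of the 6 genes in the model with surrogate variables. Its 3 markers were also low in rAAV-control mice, so the negative sign was largely set by the list. These tests therefore do not show whether a gene changed within T cells. Lag3 was lower by -3.80 at 5 d, -3.08 at 8 d and -3.10 at 28 d, and Havcr2 by -3.15, -3.06 and -4.24 (exact permutation, adjusted p = 0.0429 each). Cd274 differed by -0.22 at 5 d (exact permutation p = 0.571) and by -2.88 at 28 d (exact permutation, adjusted p = 0.0429). Cd40 at 5 d differed by -1.15 (exact permutation p = 0.0571, adjusted p = 0.0807). The other 16 tests from 5 d on passed. The number of passes fell to 0 in each of the 7 repeats that left out 1 mouse of 8 d. The part of T cells, monocytes or microglia in the levels of the 6 genes was not tested.

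**Figure D4:**
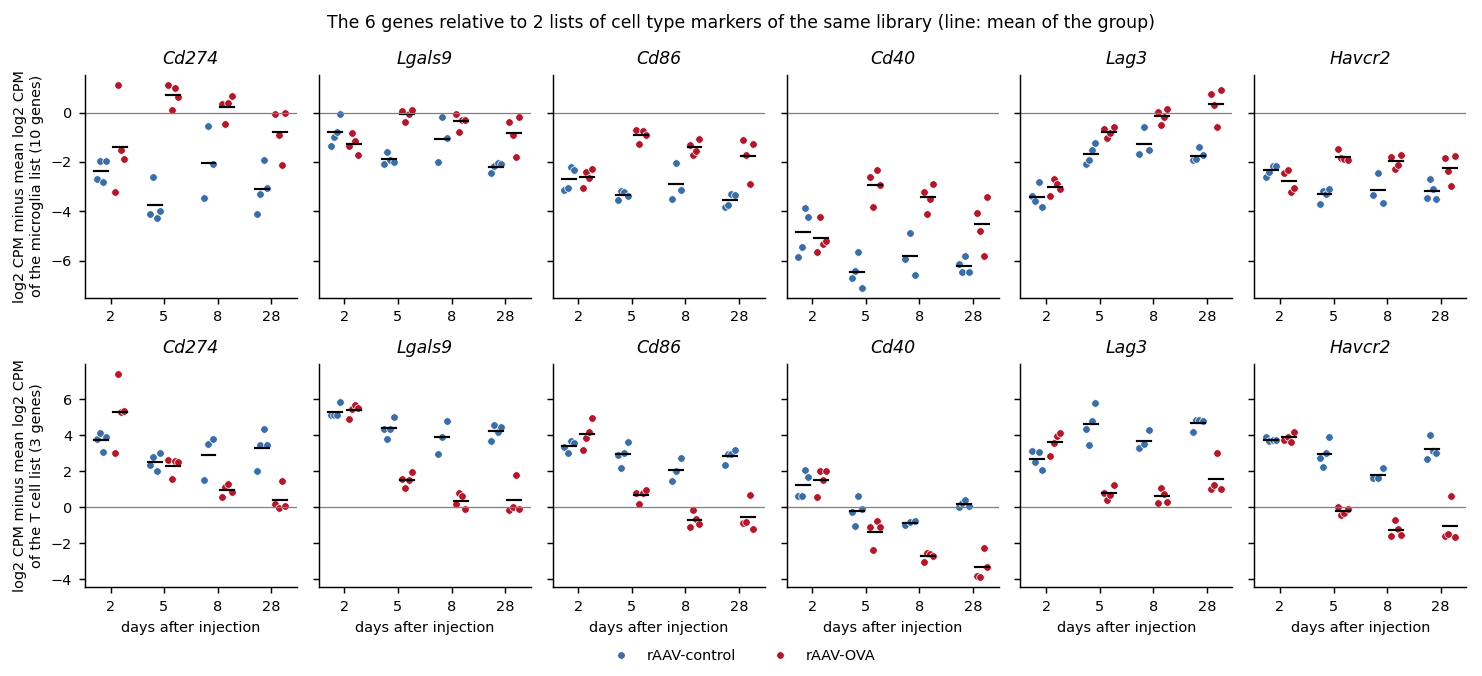
Log2 CPM of each gene minus the mean log2 CPM of 10 microglia markers (upper row) or of 3 T cell markers (lower row) in the same library, against days after injection. Points are mice, blue for rAAV-control and red for rAAV-OVA, and lines are group means. From 5 d the rAAV-OVA means are above the rAAV-control means in the upper row and below them in the lower row.

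Among the binding partners of the 6 genes, 7 of 9 tested were DEGs, all higher, at each of 5, 8 and 28 d. They were Cd80, the sister of Cd86, Havcr2 itself, Cd44 and Lgals3, and the 3 class II genes H2-Aa, H2-Ab1 and H2-Eb1, whose products LAG-3 binds. Havcr2 is 1 of the 6 genes, so its call adds nothing new here. Of all genes, 9.63%, 9.32% and 12.8% were called higher at these days, the shares to set beside the list counts below as well. Only listed genes present in the table were counted, here 9 of 15. Calls at 8 d depended on single mice, as described above. H2-Aa averaged 552 ± 51.4 CPM (SD, n = 4) in rAAV-OVA and 9.24 ± 7.76 CPM (SD, n = 4) in rAAV-control mice at 5 d, a Log2FC of 4.94. At 8 d D720 had 344 CPM of H2-Aa against 9.36 and 22.6 CPM in the other rAAV-control mice, and at 28 d D844 had 70.7 CPM against 619 to 1734 CPM in the other rAAV-OVA mice. Cd80 averaged 2.49 ± 0.67 and 0.424 ± 0.21 CPM at 5 d (SD, n = 4 each), a Log2FC of 1.78. Lgals3, which encodes a galectin that also binds LAG-3, had Log2FC values of 3.42, 2.94 and 3.0 at 5, 8 and 28 d, and Cd44, an adhesion receptor that binds galectin-9, of 3.09, 1.97 and 2.57. The TIM-3 ligands Ceacam1 and Hmgb1 were not called, with Log2FC values between 0.02 and 0.42 at these days. The receptors Pdcd1, Cd28 and Ctla4, the ligands Fgl1 and Cd40lg, and Clec4g were not among the genes of the table, so the PD-1 side of Cd274 was not analysed here.

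Of 12 genes that carry or limit the CD40 signal, 7 were DEGs at 5 d, 9 at 8 d and 8 at 28 d, all higher, and 7 were DEGs at each of the 3 days. These 7 were the adaptors Traf1 and Traf5, the NF-kB kinase Map3k14, the ubiquitin ligase Birc3, the NF-kB subunit Nfkb2, the NF-kB inhibitor Tnfaip3 and the kinase Jak3. Traf1 had Log2FC values of 2.66, 2.87 and 3.94, while Traf3 and Traf6 lay between -0.17 and 0.38. Of 9 tested genes of the interferon-gamma pathway 6, 7 and 7 were DEGs, all higher, and Ifng itself was not in the table. Ciita, which switches on class II genes, had Log2FC values of 5.38, 4.11 and 4.51, and Irf1 of 3.6, 2.71 and 2.16. The 9 genes include Cmklr1, a chemokine-like receptor of myeloid cells, which was a DEG at each of these days and is part of the counts.

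**Figure D5:**
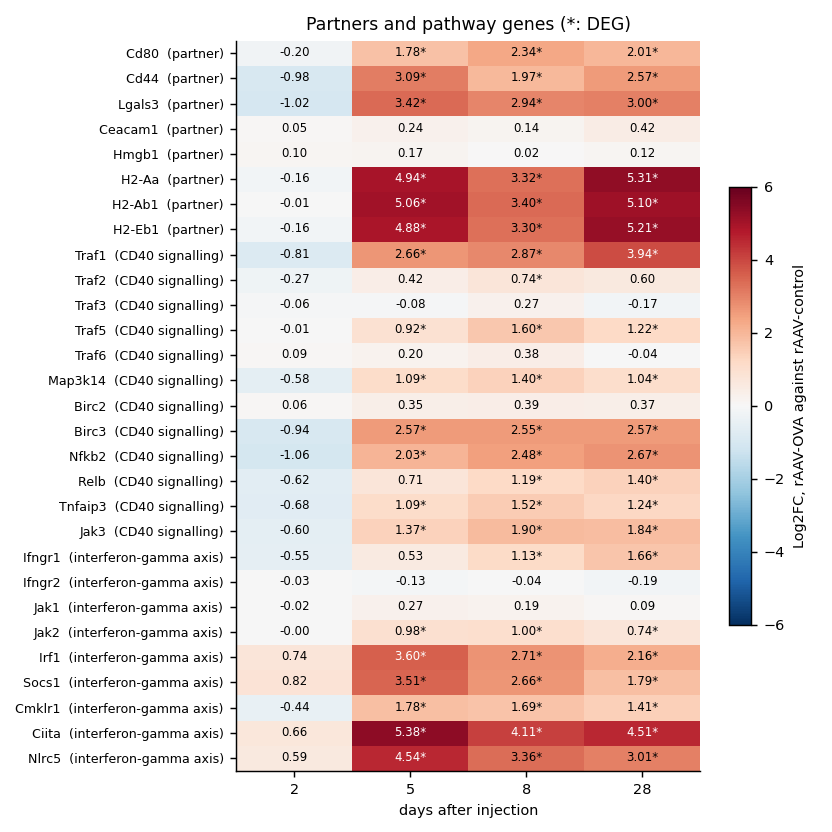
Log2FC of rAAV-OVA against rAAV-control mice (colour and number) for the tested binding partners, the CD40 signalling genes and the interferon-gamma pathway genes, with days after injection as columns and an asterisk for a DEG. No gene carries an asterisk at 2 d, and the class II genes and Ciita have the largest values at 5 d.

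Of 16 table entries for other checkpoint genes 8, 8 and 10 were DEGs at 5, 8 and 28 d, all higher, and 7 were at each day. Lilrb4a, an inhibitory receptor of myeloid cells that stands under 2 gene identifiers, reached a Log2FC of 5.38 at 28 d, and Tnfrsf14, which encodes the herpesvirus entry mediator, had 3.33, 2.67 and 2.60. The immunoglobulin-like inhibitory receptor Lair1 had 1.45, 1.38 and 1.46. Pvr was called at 5 d alone (0.74) and Nectin2 at 28 d alone (0.73), while Cd276, Cd200, Cd47, Sirpa and Nectin3 were called at none of these days, at values between -0.56 and 0.35. Of 3 tested costimulators of the tumour necrosis factor family 2, 1 and 2 were DEGs, and Tnfrsf9 (4-1BB) had Log2FC values of 4.28, 4.12 and 5.06. Of 7 genes of the galectin list 5, 2 and 3 were DEGs, all higher, with Lgals3 at each day. The list also holds Lgals3bp, which encodes a galectin-3 binding protein and no galectin, and which was one of the DEGs at 5 d (Log2FC 2.03) and 28 d (2.30). The lists overlap, since Lgals3 and Lgals9 are among the galectins.

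For each of the 6 genes, the 5 genes with the most similar log2 CPM over the 31 mice were found, and those reported here are named. Cd274 was followed most closely by Irgm1 (Pearson r = 0.991), then Gbp6, Gbp7 and Igtp, all of them interferon-induced GTPases. Lgals9 was closest to Mpeg1 (r = 0.978), Dhx58, Ifitm3, Trim30a and C1qc, a mix of macrophage and interferon-induced genes. Cd86 was closest to Lair1 (r = 0.989), Psme1, Sp140, H2-DMb1 and AW112010, and Cd40 to Casp4 (r = 0.973), Pim1, Clec5a, Trex1 and Pnp. Havcr2 was closest to Inpp5d (r = 0.985), Rasa4, Vav1, Sh3bp2 and Itgb2, most of them signalling genes of blood and myeloid cells. Lag3 had the weakest best match, P2ry13 (r = 0.934), one of the microglia markers, followed by H2-Oa and the lymphocyte genes Ptprcap and Itgae. The mice share their day and vector, so these values describe the pattern over groups as much as that within them.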

How the data were processed

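Estimated counts per gene were deposited by the authors as whole numbers, 1 column per mouse. They had trimmed reads with fastp, quantified them with Salmon 1.8.0 and GC correction against GENCODE M29, summed them to genes with tximeta and kept genes that reached 15 counts in 15 mice or more. The study tested them with DESeq2 1.36.0, 2 surrogate variables and ashr. Here the rounded counts of all 31 mice entered 1 edgeR 4.0.16 model with 8 groups, TMM factors and 2 surrogate variables (sva 3.50.0), tested by the robust quasi-likelihood F-test with Benjamini-Hochberg adjustment. CPM used TMM-scaled totals, with a prior count of 2 on the log scale. CPM per kb used the median coding transcript of GENCODE M21. Totals ran from 19046977 to 57407902 (median 27024978). TruSeq RNA libraries were used, and strand-aware counting was not stated. A second deposited table held the same values (0 cells differed) and was not used. Some genes of the lists are not reported here. The rule named the 6 genes of the selection and their direct partners that were DEGs. Other list genes given by name were chosen after their values were seen. The gene lists (partners, other checkpoint genes, tumour necrosis factor costimulators, CD40 signalling, interferon-gamma pathway, galectins and 10 cell type lists) and the 6 genes were chosen with earlier results of these data known. Nothing in the sources ties mice to cages or litters, so mice were treated as independent, which could not be checked. The edgeR p-values rest on a spread estimated over all 31 mice. Alternatives used DESeq2 1.42.0, limma 3.58.1, other scaling, filters, covariates and samples. Calls credited to DESeq2 are those of its Wald test without ashr.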

Additional observations from a re-analysis of the deposited data

Results flagged for a closer look

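Cd274 in the rAAV-OVA mice at 2 d stood at 82.3 CPM in BEC-B542, far above the next mouse at 16.2 CPM and the lowest at 4.32 CPM. The gap to the next mouse was 0.847 of the range of the group, above the 95% critical value of Dixon's test for 4 samples. This was 1 of 42 groups of 4 mice examined over the 6 genes, and chance alone marks about 1 in 20 such groups.

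The response of Lag3 was larger at 28 d than at 5 d by 2.06 on the log2 scale (SE 0.54, edgeR quasi-likelihood FDR = 0.0204), tested as an interaction over all mice. The call was lost without D755 (edgeR FDR = 0.0724), without D661 (edgeR FDR = 0.0615), without covariates (edgeR FDR = 0.0561) and with the batch label in place of the surrogate variables (edgeR FDR = 0.0569).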

How the results depend on the processing

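No paired analysis was possible because each mouse belongs to 1 vector and 1 day and the labels tie no mouse of one group to a mouse of another. The batch label, which is no pairing of mice, was fitted as a covariate. From 5 d to 28 d, the Log2FC of each of the 6 genes kept its sign under every alternative run. The number of DEGs at 8 d went from 5 to 3 with the batch label or without covariates and to 0 with the mice of the day alone, where 0 of all 15648 genes were called, and leaving out 1 mouse gave 0 to 6. Of all genes, 1235 were called higher at 8 d with the batch label and 1186 without covariates, against 1459 in the main fit. At 28 d it went from 6 to 0 in batch 2 alone (2 mice per group), where again 0 of all genes were called. The difference of responses between 28 d and 5 d had 0 calls with the batch label or without covariates, and 0 to 1 when leaving out 1 mouse. Within rAAV-OVA mice, 5 d against 2 d had 5 calls with at least 15 counts in every mouse, with DESeq2, with limma or without covariates, and 6 with the batch label. Of all genes, 1573 were called higher without covariates and 1565 with the batch label, against 1033 in the main fit. With at least 15 counts in every mouse it was 964 of 13779 genes. For 8 d against 5 d DESeq2 and limma gave 1. In rAAV-control mice, 28 d against 2 d had 1 call with the batch label, 0 with limma and 1 without covariates, and leaving out 1 mouse gave 0 to 1. The tests relative to the microglia list gave 0 to 16 passes and those relative to the T cell list 0 to 19 when leaving out 1 mouse, since the adjusted p depends on how many of the 24 tests reach the smallest p. At 2 d, where none of the 6 genes was called under any alternative run, Cd86 turned to 0.12 with 15 counts in every mouse, 0.17 in batch 2 alone, 0.055 with the batch label, 0.042 with the mice of the day alone, 0.043 without covariates and 0.038 with BEC-B542 also left out, and Cd40 to 0.65 in batch 2 alone. Leaving out 1 mouse gave -0.21 to 0.18 for Cd86 and -0.63 to 0.12 for Cd40 at 2 d, and for the difference between 28 d and 5 d -0.13 to 0.55 for Havcr2 and -0.23 to 0.52 for Cd86. Where no cause is named, the cause was not tested. The fits that combine no covariates with a left-out mouse were chosen after seeing the data. Cd40 was absent under the 15-count filter, and its rAAV-control levels rest on 6 to 68 counts per mouse.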

Other observations

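Of 4 tested dendritic cell markers 2 were DEGs at 5 d, 2 at 8 d and 3 at 28 d, all higher. Ccr7, the homing receptor of mature dendritic cells and naive T cells, had Log2FC values of 5.10, 4.43 and 5.98, and the integrin gene Itgax had 3.07, 2.35 and 4.64. The single tested natural killer cell marker was not called, and the single tested B cell marker, Cd79b, was called at 28 d (Log2FC 2.82), at a sum of 0.276 to 3.08 CPM in rAAV-OVA mice. With Rag1 deleted these mice have no mature B cells, and the source of this transcript was not tested. Endothelial markers were DEGs at 28 d in 3 of 4 cases, all higher, and at 5 and 8 d in 0 of 4. Of 4 astrocyte markers 1 fell at 5 d and 0 rose. Of 4 neuronal markers 1 fell at 5 d and 3 at 28 d, and of 4 hippocampal markers 2 fell at 5 d and 2 at 28 d.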
